A study of Arabidopsis thaliana with 48 samples.

Results

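These libraries follow the transcripts of a wild-type Arabidopsis thaliana leaf that had been lit with excess light for 4 min. Members were chosen by genotype, leaf and time alone: the 3 libraries of the lit (local) leaf of Columbia plants, called WT here, at 4 min and the 3 of the local leaf at 0 min, which make 6 of the 48 libraries of the series. Plants were 4 to 5 weeks old and had grown at 50 µmol m-2 s-1 with 8 h of light and 16 h of dark at 23 °C, and 1 leaf of each plant was placed under 2000 µmol m-2 s-1 from a gooseneck lamp. The 0 min leaves were not lit with the lamp. Each library was a pool of leaves from many plants, collected in the same hour of the morning per the methods of the study. The other groups used below were the WT local leaf at 2 and 8 min, an unlit (systemic) leaf of the same WT plants at 0 and 4 min, and the local leaf of rbohD plants at 0 and 4 min. The rbohD plants carry a knockout of the NADPH oxidase gene RBOHD, formed a separate experiment and were normalized in a table of their own, so genotype, experiment and table cannot be told apart. Every group held 3 libraries.

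Excess light means more light than photosynthesis can use, and reactive oxygen species are then made in the chloroplast and outside the cell. Leaves answer within minutes at the level of transcripts, among them those of heat shock factors, which are also switched on by oxidative stress. In the usual picture, class A1 heat shock factors are released from chaperones, form trimers, bind heat shock elements (arrays of inverted GAA units in promoters) and raise the transcripts of secondary factors such as HSFA2, HSFA7A and DREB2A. These in turn act on the genes of small heat shock proteins, which hold unfolding proteins, and of HSP70, HSP90 and HSP101, which refold them.

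The 6 libraries held 19791759 to 26903294 reads assigned to genes, and biological replicates of WT local leaves spread with a coefficient of variation of 4.13%. Values below are normalized counts, that is reads divided by a factor for library size. A gene rose or fell where the limma test on log2(normalized count + 1) gave an adjusted p under 0.05, and fold changes are on that scale, which understates the change of low genes. The tissue carried the markers of a leaf: the 4 mesophyll markers summed to between 1716068 and 1798141 normalized counts at 0 min and between 1607558 and 1735239 at 4 min. The 3 seed markers were at or near 0, with sums of 0 to 1.14. The 7 guard cell markers summed to 962 to 1103 at 0 min and 832 to 920 at 4 min (2 of 7 lowered), and the 4 xylem markers to 764 to 869 and 559 to 639 (2 of 4 lowered), so both lists were lower at 4 min with no overlap. In such bulk samples fewer cells of a type and less RNA per cell cannot be told apart, and the part of these cell types in the results below was not tested.

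Excess light for 4 min changed the steady-state level of 4303 of 18055 transcripts tested, or 23.8%. Of these, 2350 rose (13%) and 1953 fell (10.8%). Most changes were small: the median fold change was 1.24, and 323 transcripts (1.79%) changed at least 2-fold, 213 up and 110 down. For 6586 genes (36.5%) no library of one time reached the range of the other, and 4064 of the changed genes were among them. The median log2 change over all genes tested was 0.01, against which the gene lists below can be read. Gene lists were drawn up by pathway, and members named beyond the 3 largest changes of a list were picked after their values had been seen.

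Of the 12 largest rises 6 were HSP20-like genes, which encode small heat shock proteins, and HSFA2 and DREB2A, factors that control such genes, rose by less than these 12. AT1G59860, an HSP20-like chaperone on chromosome 1 (22031343 to 22032250, TAIR10.1), stood at 103, 106 and 112 normalized counts in the 3 libraries at 0 min and at 4225, 3572 and 3503 at 4 min. The groups were far apart and each was tight, but a lack of overlap was required of all 12 of these genes. The rise was 34.8-fold, or 5.12 on the log2 scale (SE 0.06, limma adjusted p 4.03e-25). HSFA2, a secondary heat shock factor on chromosome 2 (11135624 to 11137792), stood at 659.9, 666 and 707 normalized counts at 0 min and at 6282, 5085 and 5371 at 4 min. All lit leaves lay above all controls, and the rise was 8.19-fold (log2 3.03, SE 0.06, limma adjusted p 1.38e-20). DREB2A, an AP2-type factor of drought and heat responses on chromosome 5 (1602205 to 1604112), rose from 20.6, 28.1 and 25.1 to 324, 234 and 271 normalized counts. This was a log2 rise of 3.44 (SE 0.12, limma adjusted p 7.60e-16), again without overlap.

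**Figure D1:**
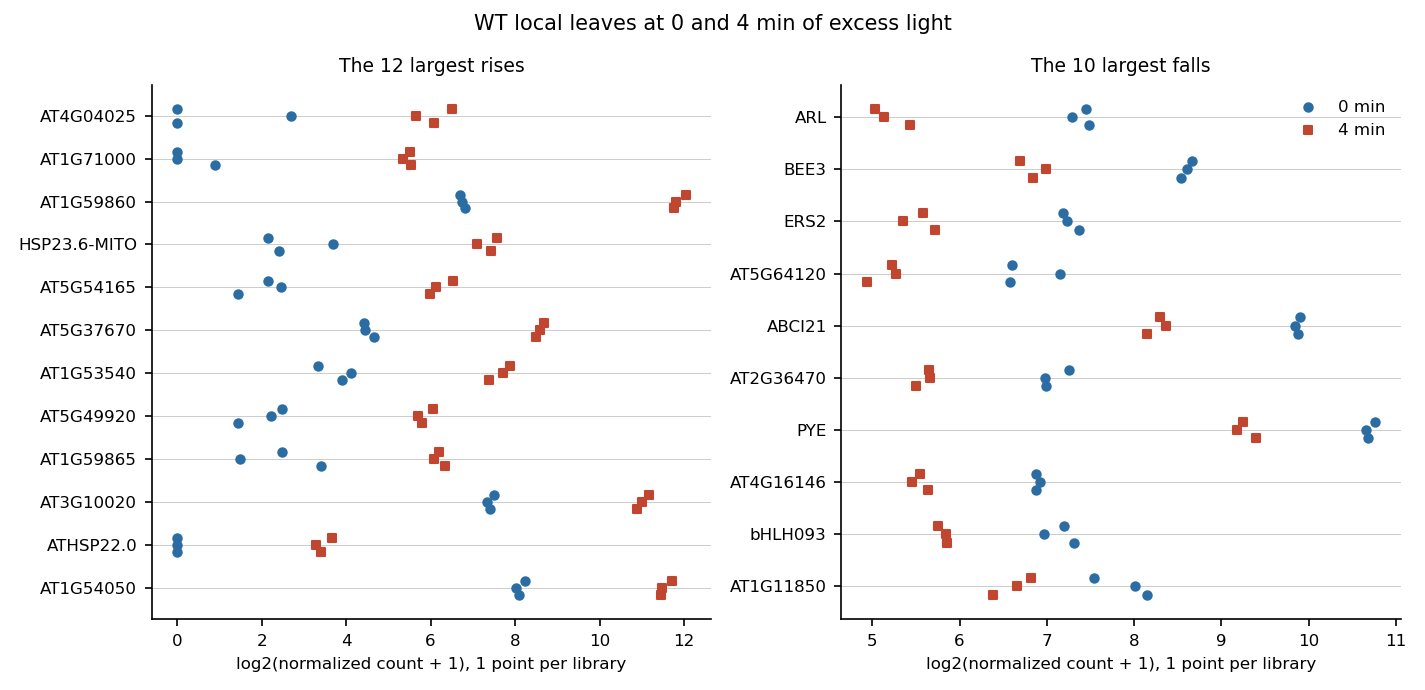
Each row is a gene and each point a library of WT local leaves, at 0 min (circles) or 4 min (squares), on the scale log2(normalized count + 1). For the 12 largest rises and the 10 largest falls among genes that averaged at least 50 normalized counts in the 12 libraries at 0, 2, 4 and 8 min, the libraries at 4 min lie wholly to one side of those at 0 min, as the rule that chose these genes required.

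Of the 14 heat shock factor genes tested, 7 rose and 0 fell, where 13% of all genes rose and 10.8% fell. The median log2 change of the list was 0.45. That median was 0.28 with members at the floor at 0 min, such as AT-HSFA7B with 0 reads, set to their bounds. Besides HSFA2, the class A factor HSFA7A rose from 52.5, 45.3 and 62.3 to 258, 258 and 198 normalized counts (log2 2.14, SE 0.11, limma adjusted p 7.79e-13). The class B factors AT-HSFB2B and HSFB2A, which in general repress transcription, rose by 1.01 (SE 0.08) and 0.92 on the log2 scale. AT-HSFB2B overlaps AT4G11670 by 308 bases, a gene that stood at 209 normalized counts at 0 min and 219 at 4 min. Smaller rises were those of HSFA8 (0.64), HSF A4A (0.51) and HSF3 (0.40), whose limma adjusted p lay between 6.10e-05 and 0.0175.

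The promoters of factor and chaperone genes are shown because the letters of a perfect heat shock element, GAANNTTCNNGAA on either strand, can be read in them. The windows are the 250 bases before the annotated gene start in the RefSeq annotation of TAIR10.1, 5′ to 3′ on the strand of the gene, with the motif in capitals. They are AT1G71000 (chr1:26770178-26770427, minus strand), AT1G53540 (chr1:19980049-19980298, plus strand), HSFA2 (chr2:11135374-11135623, plus strand), HSFA7A (chr3:19264891-19265140, plus strand) and DREB2A (chr5:1601955-1602204, plus strand).
AT1G71000: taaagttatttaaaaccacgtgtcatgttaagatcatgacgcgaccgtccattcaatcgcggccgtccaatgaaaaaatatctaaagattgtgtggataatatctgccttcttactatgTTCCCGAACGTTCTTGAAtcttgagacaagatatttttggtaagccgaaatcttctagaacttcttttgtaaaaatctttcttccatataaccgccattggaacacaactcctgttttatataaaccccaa
AT1G53540: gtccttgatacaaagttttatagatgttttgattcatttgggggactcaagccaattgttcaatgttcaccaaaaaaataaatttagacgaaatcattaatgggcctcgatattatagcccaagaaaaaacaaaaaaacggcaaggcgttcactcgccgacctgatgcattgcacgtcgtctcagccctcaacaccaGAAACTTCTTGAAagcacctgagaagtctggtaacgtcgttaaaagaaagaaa
HSFA2: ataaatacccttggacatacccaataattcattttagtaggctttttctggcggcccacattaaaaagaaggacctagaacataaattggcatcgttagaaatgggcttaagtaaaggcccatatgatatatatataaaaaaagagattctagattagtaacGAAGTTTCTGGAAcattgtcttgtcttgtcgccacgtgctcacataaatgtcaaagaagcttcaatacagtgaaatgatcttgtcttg
HSFA7A: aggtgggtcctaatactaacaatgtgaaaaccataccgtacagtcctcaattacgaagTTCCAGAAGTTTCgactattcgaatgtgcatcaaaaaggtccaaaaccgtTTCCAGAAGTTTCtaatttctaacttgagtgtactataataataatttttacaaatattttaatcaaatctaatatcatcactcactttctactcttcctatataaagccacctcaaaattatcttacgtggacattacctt
DREB2A: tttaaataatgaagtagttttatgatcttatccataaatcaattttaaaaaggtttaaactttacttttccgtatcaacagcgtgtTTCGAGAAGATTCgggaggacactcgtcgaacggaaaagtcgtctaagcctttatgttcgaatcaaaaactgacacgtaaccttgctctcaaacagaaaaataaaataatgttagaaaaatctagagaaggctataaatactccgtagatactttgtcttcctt
In AT1G71000 and in HSFA7A the motif occurred 2 times, and in AT1G71000 the matches overlapped. The distance to the gene start was 76 bases in HSFA2, 41 in AT1G53540 and 152 in DREB2A. This motif was present in 82 of 17962 windows of all tested genes (0.457%). It was present in 7 of the 200 windows of genes raised at least 2-fold (3.5%) and in 0 of 109 of those lowered at least 2-fold. Of the 14 heat shock factors 3 held it, and of the 10 small heat shock proteins 2. The shorter pair GAANNTTC was present in 9.55% of all windows, 16.5% of those raised at least 2-fold and 5.5% of those lowered at least 2-fold. The pair TTCNNGAA was present in 7.71%, 17% and 6.42% in the same order. A match is a run of letters and not a site shown to be bound.

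All 10 small heat shock protein genes tested rose at 4 min, where 13% of all genes did. Their median log2 change was 2.86, or 2.34 with the genes at the floor set to their bounds. HSP23.6-MITO, which acts in mitochondria, went from 3.43, 11.8 and 4.33 to 190.3, 137 and 171 normalized counts (log2 4.63, SE 0.32, limma adjusted p 2.44e-10). AT1G53540, whose promoter is printed above, went from 9.13, 16.3 and 13.9 to 234, 209 and 165 (log2 3.87, SE 0.21). In both genes the controls were low but above 0, and no libraries overlapped, as the rule for the 12 largest rises required. HSP17.6A rose by 2.81, HSP17.6II by 2.66, HSP17.4 by 2.01, AT1G07400 by 1.78 and HSP18.2 by 1.26 on the log2 scale. ATHSP22.0, a chaperone of the secretory pathway, had 0 reads in every library at 0 min and 11.7, 8.82 and 9.51 normalized counts at 4 min, so that it was at least 2.93-fold higher, against a floor of 3 reads per library. HSP21, the small heat shock protein of the chloroplast, likewise went from 0 to a mean of 7.04 and was at least 2.06-fold higher. AT5G37670 and AT1G54050, further HSP20-like genes that were not counted in the list, rose by 4.07 (SE 0.09, from a mean of 21.9 to 384) and 3.44 (SE 0.06, from 277.5 to 3021). AT1G59860, AT1G53540, AT1G07400, HSP17.6A, HSP23.6-MITO and ATHSP22.0 shared 0% of their 50-base stretches with other genes.

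Among 19 large chaperones and cochaperones, 10 rose and 3 fell, where 13% of all genes rose and 10.8% fell. The median log2 change of the list was 0.24. AT1G71000, a DnaJ-domain protein, had 0, 0 and 0.87 normalized counts at 0 min (at most 1 read) and 44.6, 39.7 and 45.4 at 4 min, and was at least 12.6-fold higher. BAG6, a cochaperone that binds calmodulin, went from 97.0, 68.9 and 78.8 to 569.6, 574 and 443 normalized counts (log2 2.69, SE 0.10, limma adjusted p 8.36e-15). MBF1C, a transcriptional coactivator needed for heat tolerance, went from 524, 408 and 517 to 2594, 2409 and 2367 (log2 2.35, SE 0.09). It overlaps 3 annotated genes, of which ALDH2C4 stood at 3885 and 3815 normalized counts at the 2 times. In each of these genes every lit leaf lay above every control, which for AT1G71000 was required by the rule that chose it. Hop3 rose by 1.62, Hsp70b by 1.45, HSA32 by 0.85, HSP70 by 0.75, HSP90.1 by 0.41, HSP101 by 0.37 and Fes1A by 0.24. The members that fell were CLPB4 of mitochondria (-0.36), the small chaperone BOB1 (-0.24) and the constitutive HSC70-1 (-0.22), the last at a mean of 117939 normalized counts at 0 min and 101243 at 4 min. The inducible HSP70 and Hsp70b therefore moved in the opposite direction to HSC70-1.

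The remaining genes among the 12 largest rises were of mixed or unknown function. The mean of at least 50 normalized counts asked of these genes was taken over all 4 times, and low genes such as AT1G71000 and ATHSP22.0 reached it through the libraries at 8 min, where their means were 654 and 372. AT3G10020, a gene with no described product that responds to low oxygen, went from 182, 161 and 169.7 to 2305, 2043 and 1882 normalized counts (log2 3.59, SE 0.07, limma adjusted p 1.67e-20). AT4G04025, annotated as a transcription repressor on chromosome 4 (1934009 to 1934635), went from 0, 5.44 and 0 to 90.4, 49.6 and 66.6 (log2 5.19, SE 0.49). The uncharacterized AT1G59865 rose by 3.75 (SE 0.32). AT5G54165 rose by 4.19 and AT5G49920 by 3.81, but 11% and 14.2% of their 50-base stretches are shared with other genes. AT5G54165 overlaps AT5G54170 by 87 bases and AT5G49920 overlaps cpHsc70-2, the latter at 21600 normalized counts at 0 min, so that their own level is uncertain.

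Among the 10 largest falls were ARL, BEE3, the ethylene receptor gene ERS2 and the iron deficiency gene PYE, and the other 6 had varied or unknown functions. ARL, an ARGOS-like gene that promotes cell expansion (chromosome 2, 18236789 to 18238173), went from 174, 155 and 178 normalized counts at 0 min to 31.7, 34.2 and 42.3 at 4 min. The groups did not overlap, and the fall was 4.61-fold (log2 -2.21, SE 0.13, limma adjusted p 1.47e-11). BEE3, a basic helix-loop-helix factor that responds early to brassinosteroid, went from 405, 389.9 and 371 to 102, 126 and 114 (log2 -1.76, SE 0.09). ERS2 went from 145, 149.6 and 164 to 47.0, 39.7 and 51.8 (log2 -1.71, SE 0.12). ABCI21, an ABC-type ATPase, went from 958, 918 and 939.5 to 314, 329.7 and 282 normalized counts (log2 -1.60, SE 0.06, limma adjusted p 4.82e-15). For all of these the highest lit leaf lay below the lowest control, as the rule that chose the 10 largest falls required. The peroxidase AT5G64120 (-1.63), AT2G36470 (-1.47), AT4G16146 (-1.35), bHLH093 (-1.34) and AT1G11850 (-1.28) completed the largest falls together with PYE.

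Of 16 iron homeostasis genes, 10 fell and 4 rose, where 10.8% of all genes fell, and the median log2 change was -0.39. PYE, a helix-loop-helix repressor made under iron deficiency, went from 1739, 1616 and 1638 normalized counts to 609.6, 578 and 674 (log2 -1.42, SE 0.05, limma adjusted p 4.31e-15). BTS, the ubiquitin ligase that acts on partners of PYE, went from 11182, 10714 and 10509 to 5829, 5642 and 5764 (log2 -0.91, SE 0.04). No lit leaf reached the level of a control in either gene, which for PYE was required by the rule that chose it. ORG1 fell by 0.91, the phloem iron transporter OPT3 by 0.75, the ferric reductase FRO3 by 0.63 and the nicotianamine synthase NAS4 by 0.54 on the log2 scale. The iron-deficiency factors bHLH39 (-0.48), BHLH100 (-0.43) and bHLH38 (-0.35) fell as well. The members that rose were NAS3 (1.08), the iron-nicotianamine transporter YSL1 (0.48), NEET (0.34) and the iron store ferritin FER1 (0.31), while the ferritin FER4 fell (-0.28). The letters of the G-box, CACGTG, were present in the 250-base promoter windows of 6 of these 16 genes (37.5%) and of 7.36% of all tested genes. Lists that moved otherwise held it as often: 9 of 22 circadian clock genes (40.9%), 6 of 15 endoplasmic reticulum stress genes (40%) and 3 of 7 hypoxia genes (42.9%). The share was therefore not particular to the iron genes.

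Jasmonate genes rose more often than they fell, with 12 raised and 1 lowered of 21, where 13% of all genes rose and 10.8% fell. The median log2 change of the list was 0.37. LOX2, the chloroplast lipoxygenase at the start of jasmonate synthesis, went from 5357, 5317 and 4774 to 9013, 8212 and 9374 normalized counts (log2 0.78, SE 0.05, limma adjusted p 4.76e-11). The next enzymes of the pathway followed: the allene oxide cyclases AOC2 (0.76) and AOC1 (0.64), OPR3 (0.48), OPCL1 (0.37) and AOS (0.19) all rose. Of the JAZ repressors, which are themselves induced by jasmonate, JAZ5 rose by 0.85, JAZ3 by 0.49, TIFY10B by 0.37 and JAZ12 by 0.17, whereas JAZ6 fell by 0.42. ORA47, a regulator of jasmonate synthesis, went from 4.57, 8.16 and 4.33 to 18.8, 13.2 and 31.7 normalized counts (log2 1.69, SE 0.30, limma adjusted p 0.000237).

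Salicylic acid genes also rose, 15 of 22 with 1 lowered, where 13% of all genes rose and 10.8% fell. Their median log2 change was 0.43. They included regulators of synthesis and signalling, SARD1 (0.75), CBP60G (0.87), EDS1 (0.41), PAD4 (0.45) and NPR1 (0.35), and enzymes of synthesis, EDS16 (0.63) and PBS3 (0.86). The glucanase gene BGL2 went from 1555, 1954 and 1671 to 2950, 4006 and 2797 normalized counts (log2 0.90, SE 0.10, limma adjusted p 2.40e-07), with all lit leaves above all controls. AT4G10500, an oxygenase that hydroxylates salicylic acid, rose by 0.94 (SE 0.07) and ALD1, which makes pipecolic acid, by 0.93 (SE 0.19). PR1, the classical marker, stood at 934, 991 and 778 at 0 min and 772, 1248 and 738 at 4 min, overlapping fully (log2 -0.01, 95% interval -0.27 to 0.26, limma adjusted p 0.981). That value rested on replicate 2 at 4 min, without which PR1 was lower at 4 min (log2 -0.25, limma adjusted p 0.043). Endoplasmic reticulum stress genes moved upwards by less: 9 of 15 rose and 0 fell, with a median of 0.24, led by ATERDJ3A (0.51), PDIL1-1 (0.46) and NAC062 (0.40).

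Fast stress factors of other families rose in part, to be read beside the 13% of all genes that rose and the 10.8% that fell. Of 7 ZAT and AZF zinc fingers 4 rose and 0 fell (median 0.85). RHL41, also known as ZAT12, went from 21.7, 21.8 and 13 to 85.7, 93.7 and 88.8 normalized counts (log2 2.22, SE 0.15, limma adjusted p 2.11e-10), and STZ, also known as ZAT10, rose by 1.90 (SE 0.10). ZAT7 rose by 0.90 and ZAT6 by 0.85. Of 23 ERF and DREB factors 8 rose and 4 fell, among them ERF104 (1.62), CBF2 (1.38) and RAP2.4 (0.86) upwards and TINY2 (-0.81) and DEAR2 (-0.69) downwards. Of 34 WRKY factors 10 rose and 1 fell, with a median of 0.11, led by WRKY46 (0.86), WRKY30 (0.72) and WRKY60 (0.64). Of 23 calcium and touch genes 12 rose and 1 fell (median 0.19). The exchanger CAX3 rose by 1.31 (SE 0.20), TCH4 by 1.02 and CML37 by 0.87.

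Genes that handle reactive oxygen species changed by small amounts, between -0.38 and 0.68 on the log2 scale. Of 28 tested, 9 rose and 3 fell, where 13% of all genes rose and 10.8% fell, and the median log2 change was 0.14. APX1, the main ascorbate peroxidase of the cytosol, went from 8571, 10533 and 10086 to 12539, 13106 and 12483 normalized counts (log2 0.39, SE 0.06, limma adjusted p 2.90e-05). BAP1, a marker of singlet oxygen, rose by 0.67 (SE 0.16) and BCS1 of mitochondria by 0.60 (SE 0.08). VTC2, the controlling enzyme of ascorbate synthesis, fell by 0.31 from a mean of 72727 normalized counts, and the iron superoxide dismutase FSD1 fell by 0.30. RBOHD itself stood at 1373, 1364 and 1367 normalized counts at 0 min and 1379, 1379 and 1269 at 4 min, which overlapped (log2 -0.03, 95% interval -0.11 to 0.06, limma adjusted p 0.669). A further list held the 9 genes that the study tested as mutants or short-listed as transcription factors, and not the rest of its short list. The study chose them with systemic leaves of both genotypes and seedlings given hydrogen peroxide. For its short list it also used mutants or an inhibitor experiment. Of these 9 genes AT1G56520 rose by 0.43 and MYB30 by 0.28. The MYB30 call was lost with DESeq2 (adjusted p 0.0658), without replicate 2 or 3 at 0 min (limma adjusted p 0.0579 and 0.0602) and without replicate 2 or 3 at 4 min (0.0517 and 0.0758).

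Transcripts of the photosynthetic apparatus were close to their starting level at this time. Of 43 nuclear photosynthesis genes 3 rose and 1 fell, where 13% of all genes rose and 10.8% fell. The list had a median of 0.05 and changes between -0.25 and 0.29. CAB1 stood at 746791, 694798 and 731903 normalized counts at 0 min and at 589267, 605150 and 634162 at 4 min (log2 -0.25, SE 0.07), a call that was lost without a filter on low values (limma adjusted p 0.0907) and without replicate 1 at 4 min (0.0648), and it shares 22% of its 50-base stretches with other genes. Of 17 photoprotection genes 2 rose and 2 fell, close to the shares of all genes. ELIP2, an early light-induced protein, was at 102, 111 and 96.1 at 0 min and at 97.5, 83.8 and 80.3 at 4 min, with overlap (log2 -0.24, 95% interval -0.50 to 0.03, limma adjusted p 0.193). VAR2, the FtsH protease that removes damaged photosystem II protein, rose by 0.22 and LHCB4.3 fell by 0.62. Of 19 chlorophyll genes 4 rose and 1 fell, led by NYC1 (0.32) and HEMA1 (0.28).

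Growth, pigment and daily-rhythm genes moved in both directions, to be read beside the 13% of all genes that rose and the 10.8% that fell. Of 38 auxin and expansion genes 13 fell and 6 rose (median -0.09). The cell wall loosening genes EXPA11 (-0.75), EXPA10 (-0.75), XTH4 (-0.70), EXPA4 (-0.65) and EXP3 (-0.54) fell, while the auxin-conjugating GH3.3 went from a mean of 2.23 to 12.6. Of 12 gibberellin genes 3 fell and 0 rose. Of 15 flavonoid genes 6 fell and 1 rose (median -0.32), with 4CL3 at -0.78, PAL2 at -0.45 and TT5 at -0.42. Clock genes divided evenly, 6 raised and 6 lowered of 22: LHY, a morning repressor, went from 11147, 10225 and 10289 to 6562, 6902 and 6973 normalized counts (log2 -0.63, SE 0.04, limma adjusted p 1.16e-10), and TOC1 rose by 0.50. Light signalling genes divided likewise, 13 raised and 10 lowered of 31, with HFR1 (0.69) and LZF1 (0.60) up and PIF3 (-0.78), HY5 (-0.48) and HYH (-0.47) down. Of 23 sugar and carbon status genes 4 rose and 7 fell, and of 29 abscisic acid genes 3 and 3. Of 7 hypoxia genes 0 rose and 1 fell, and of 27 nuclear ribosomal protein genes 0 and 8. The ribosomal list was drawn by gene symbol and was not limited to ribosomes of the cytosol. Where a list had 0 members in one direction in the limma test at 4 min, edgeR and DESeq2 gave 0 as well, and at an unadjusted p under 0.05 the count was 0 but for 1 raised hypoxia gene.

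The 4 min time point was then set against its neighbours, 2 and 8 min, which share the 0 min controls with it. Against 2 min, 11774 of the 18055 transcripts differed (65.2%), 5983 higher at 4 min (33.1%) and 5791 lower (32.1%). That balance depended on scaling: with each library rescaled to one total the median over all genes moved from -0.01 to -0.19, and 4086 were higher and 8413 lower. From 4 to 8 min 7023 differed (38.9%), 3423 higher (19%) and 3600 lower (19.9%). All 10 small heat shock proteins were higher at 4 than at 2 min and higher again at 8 than at 4 min, and so were 18 of 19 large chaperones at each step. The controlling factors differed in when they rose. HSFA2 had a mean of 648 normalized counts at 2 min against 678 at 0 min, then 5580 at 4 min and 23854 at 8 min. The step from 2 to 4 min was 3.10 on the log2 scale (limma adjusted p 1.87e-21). DREB2A had already risen to 102 at 2 min, as had the chaperone AT1G59860 to 426. BAG6 stood at 107, 529 and 20420 normalized counts at 2, 4 and 8 min, and its later step, 5.28, was the larger.

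Several other groups lay nearer to the controls at 4 min than they had at 2 min. Iron genes had median log2 changes against 0 min of -1.01, -0.39 and -0.08 in the order 2, 4 and 8 min, and 12 of 16 were higher and 2 lower at 4 than at 2 min (10 of 16 higher after rescaling). Flavonoid genes had medians of -1.28, -0.32 and -0.11, and nuclear ribosomal protein genes of -0.73, -0.09 and -0.22. Nuclear photosynthesis genes had medians of -0.24, 0.05 and -0.19, with 35 of 43 higher and 3 lower at 4 than at 2 min (25 higher after rescaling), and 1 higher and 35 lower at 8 than at 4 min. Among the groups that had risen, WRKY factors had medians of 0.61, 0.11 and 0.21, with 22 of 34 lower and 5 higher at 4 than at 2 min, and calcium and touch genes 0.81, 0.19 and 0.89, with 18 of 23 lower and 3 higher. Sugar and carbon status genes stood at 0.66, 0.00 and 0.27, with 17 of 23 lower and 5 higher. Jasmonate genes were no nearer, at -0.34, 0.37 and 0.09, with 13 of 21 higher and 3 lower at 4 than at 2 min, and 6 higher and 9 lower at 8 than at 4 min.

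A set of 660 transcripts (3.66%) was higher at 4 min than at each of the other times, and 571 (3.16%) were lower than at each. AT1G70820, annotated as a phosphoglucomutase, had means of 445, 118.5, 974 and 404 normalized counts at 0, 2, 4 and 8 min. It thus fell below its control at 2 min and stood above it at 4 min. NUDT8, a nudix hydrolase, followed the same course with 65.4, 18.4, 135 and 55.9, as did the kelch-repeat gene AT1G80440 with 246, 109, 569 and 179. AT4G28230 (37.2, 62.7, 155 and 64.5) and the SAUR-like AT2G21200 (27.2, 50.4, 118 and 43.6) rose at 2 min, rose further and fell back, and AT2G21200 overlaps AT2G21210 by 176 bases. ASN1, the asparagine synthetase that is raised in the dark and under carbon shortage, ran the other way at 249, 1290, 146 and 289 normalized counts. ABCI21 (938, 1683, 308 and 1738), the Dof factor AT1G26790 (102, 454, 48.3 and 186) and AT1G52565 (72.3, 264, 35.9 and 109) were likewise raised at 2 min, lowered at 4 min and above that level again at 8 min. ARL reached its lowest mean, 36.1, at 4 min.

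**Figure D2:**
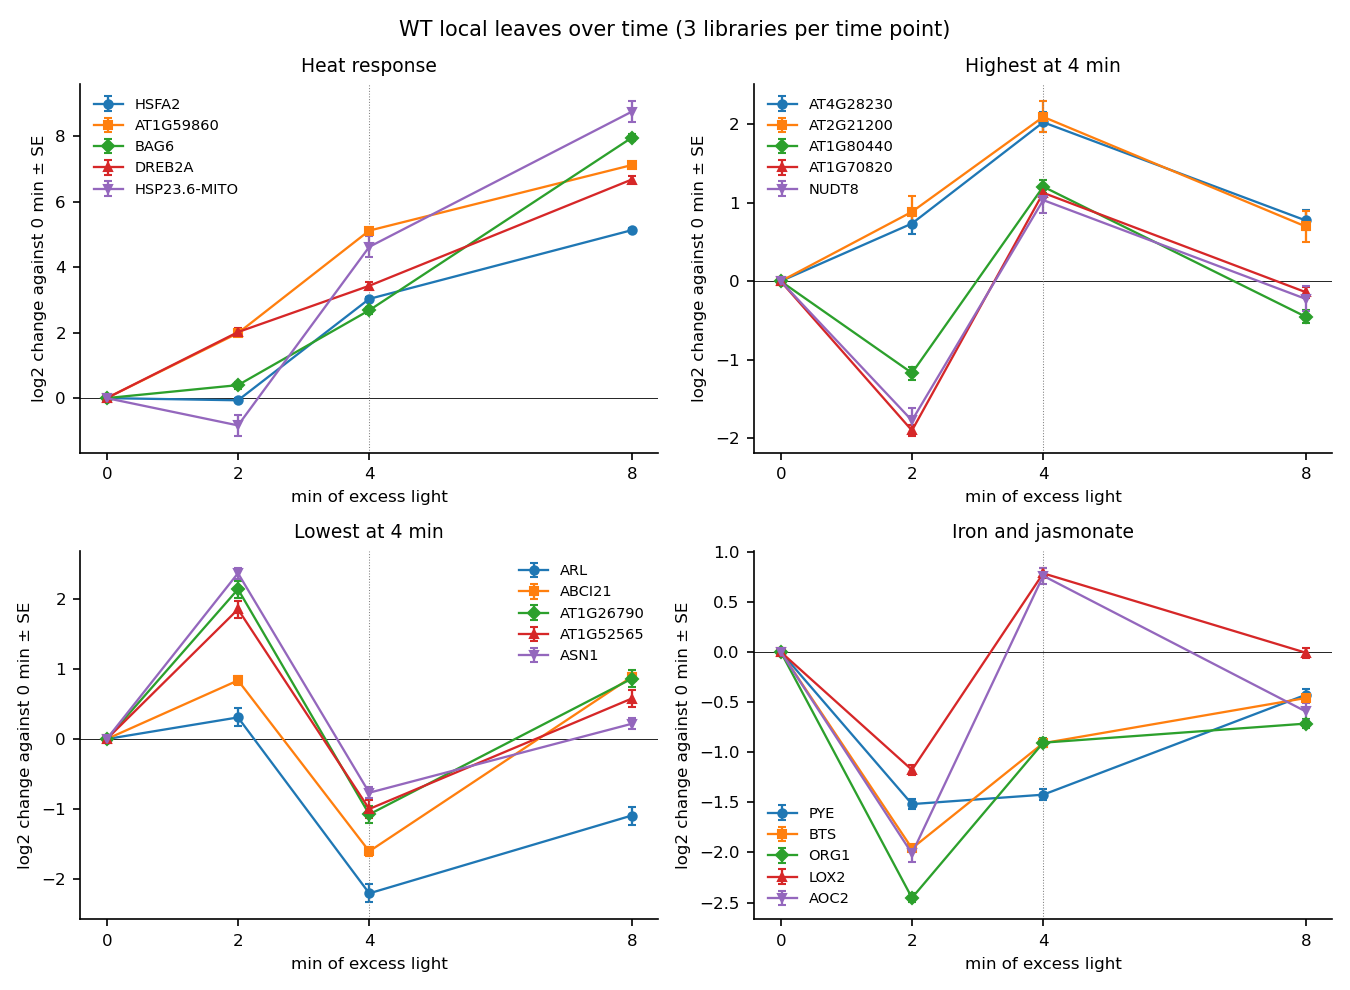
Lines give the log2 change against 0 min (± SE from limma, 3 libraries per time) of WT local leaves at 2, 4 and 8 min, with a dotted line at 4 min. Heat response genes climb from 2 to 8 min, NUDT8 and AT1G70820 lie below 0 at 2 min and above it at 4 min, ASN1 does the reverse, and PYE, BTS and ORG1 stay below 0 throughout.

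The lit leaf was compared with the unlit leaf of the same plants by testing whether the change at 4 min differed between the leaves. It did for 1132 of 17836 transcripts (6.35%), with 396 changing upwards relative to the systemic leaf (2.22%) and 736 downwards (4.13%). After rescaling to one total the split was 180 and 1156. Chaperone genes that differed did so upwards in the lit leaf: all 5 small heat shock proteins with enough counts in both leaves differed upwards (4 of 5 after rescaling or with edgeR), as did 10 of 18 large chaperones (9 of 18 after rescaling or with edgeR). Heat shock factors divided, with 5 of 13 higher and 2 of 13 lower (1 with DESeq2). The lower ones were HSFA8 (-1.11) and HSF A4A (-0.45), whose log2 changes in the systemic leaf were 1.75 and 0.96. In the systemic leaf HSFA2 went from 601 to 388 normalized counts (log2 -0.63) while it rose by 3.03 in the lit leaf, a difference of 3.66 (limma adjusted p 2.27e-23). AT1G59860 went from 86.0 to 69.4 there, a difference of 5.44, and AT1G54050 from 372 to 251, a difference of 4.01. In the systemic leaf 13 of the 18 large chaperones fell and 1 rose, where 14.1% of all genes fell and 13.9% rose.

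Salicylic acid genes showed the opposite order. In the systemic leaf 21 of 22 rose, where 13.9% of all genes did, with a median log2 change of 1.43 against 0.43 in the lit leaf, and for 15 of 22 the change was smaller in the lit leaf, a count that rescaling, edgeR and DESeq2 left at 15. PR1 went from 21 to 203 normalized counts in the systemic leaf (log2 3.31), with a difference of -3.31 between the leaves (limma adjusted p 9.94e-10) that passed the test with any 1 library left out. Its level in the lit leaf was 901 ± 110.5 at 0 min and 919 ± 285 at 4 min (SD, n = 3). UGT76B1, a glucosyltransferase of immune regulators, went from 34.5 to 133 in the systemic leaf and from 256 to 193 in the lit leaf, a difference of -2.73. The wall invertase cwINV6 went from 4.51 to 33.5 and from 78.6 to 119, a difference of -2.54. These 3 genes had higher values in the lit than in the unlit leaf at 0 min, a difference in level that was not tested because the leaves were normalized in separate tables. Of 15 endoplasmic reticulum stress genes 9 changed less in the lit leaf, and so did 7 of 33 WRKY factors and 5 of 22 calcium and touch genes. Jasmonate genes differed upwards in the lit leaf in 5 of 21, LOX2 by 0.72 and OPR3 by 0.67. Among the largest falls the test of the difference between leaves was not passed by 4 genes that fell in the systemic leaf as well, by 1.73 (ARL), 1.88 (BEE3), 1.61 (ERS2) and 1.52 (ABCI21) on the log2 scale. The difference for ARL was -0.48 (adjusted p 0.164), for BEE3 0.12 (adjusted p 0.763), for ERS2 -0.10 (adjusted p 0.802) and for ABCI21 -0.08 (adjusted p 0.752).

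**Figure D3:**
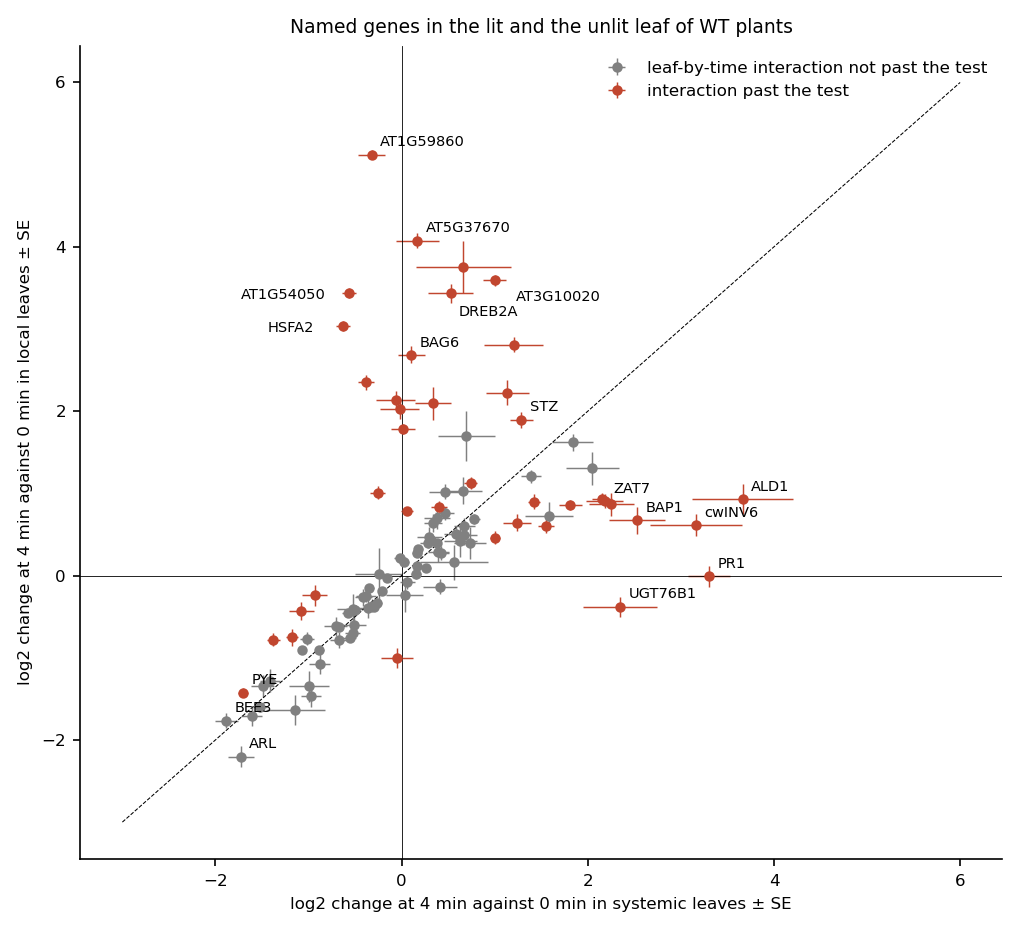
Each point is a named gene, placed by its log2 change at 4 min against 0 min in systemic (x) and local (y) WT leaves with SE bars, and red where the limma test of the difference was passed. Heat shock genes such as AT1G59860 and HSFA2 lie far above the diagonal, PR1, cwINV6 and ALD1 lie below it, and BEE3 and ARL lie near it among the falls.

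The same change was compared between WT and rbohD local leaves. It differed for 5837 of 17473 transcripts (33.4%), with 2771 changing upwards in WT relative to rbohD (15.9%) and 3066 downwards (17.5%), a split that became 1807 and 4193 after rescaling. The largest differences were in small heat shock proteins, which rose by more in rbohD. AT1G07400 went from 4.15 to 377 normalized counts in rbohD and from 278 to 957 in WT, a difference in log2 change of -4.44 (limma adjusted p 7.34e-24). HSP17.6A went from 2.32 to 377 in rbohD and from 95.7 to 676 in WT, a difference of -4.10 (limma adjusted p 4.64e-17). HSFA2 went from 42.0 to 3210 in rbohD, a difference of -3.20. For these 3 genes the values at 0 min were lower in rbohD, a difference in level that was not tested across tables. Of 10 small heat shock proteins 7 differed this way (6 with edgeR or DESeq2), as did 14 of 19 large chaperones, while BAG6 did not pass the test (0.23, adjusted p 0.202).

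Among the transcripts that fell most in WT, several started low in rbohD. PYE went from 234 to 298 normalized counts in rbohD (log2 0.35), ARL from 29.9 to 23.0, BEE3 from 84.0 to 73.1 and ABCI21 from 92.3 to 112, and the interaction was passed for all of them, from -1.57 for BEE3 to -1.88 for ABCI21. Iron genes differed downwards in WT relative to rbohD in 14 of 16 cases (16 of 16 after rescaling). AT1G70820 changed the other way, rising by 1.13 in WT and going from 2548 to 1888 in rbohD, a difference of 1.56 (limma adjusted p 2.64e-17), and the DNA repair gene BRCA1 differed by 1.4. Nuclear photosynthesis genes differed upwards in 36 of 43 cases and downwards in 1. Values at 0 min also differed outside the stress genes: the clock gene LHY stood at 10554 ± 515 normalized counts at 0 min in WT and 599 ± 21 in rbohD (SD, n = 3). Because genotype, experiment and normalization coincide, these values describe the tables, and whether the difference lies with the genotype or with the experiment cannot be told apart.

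**Figure D4:**
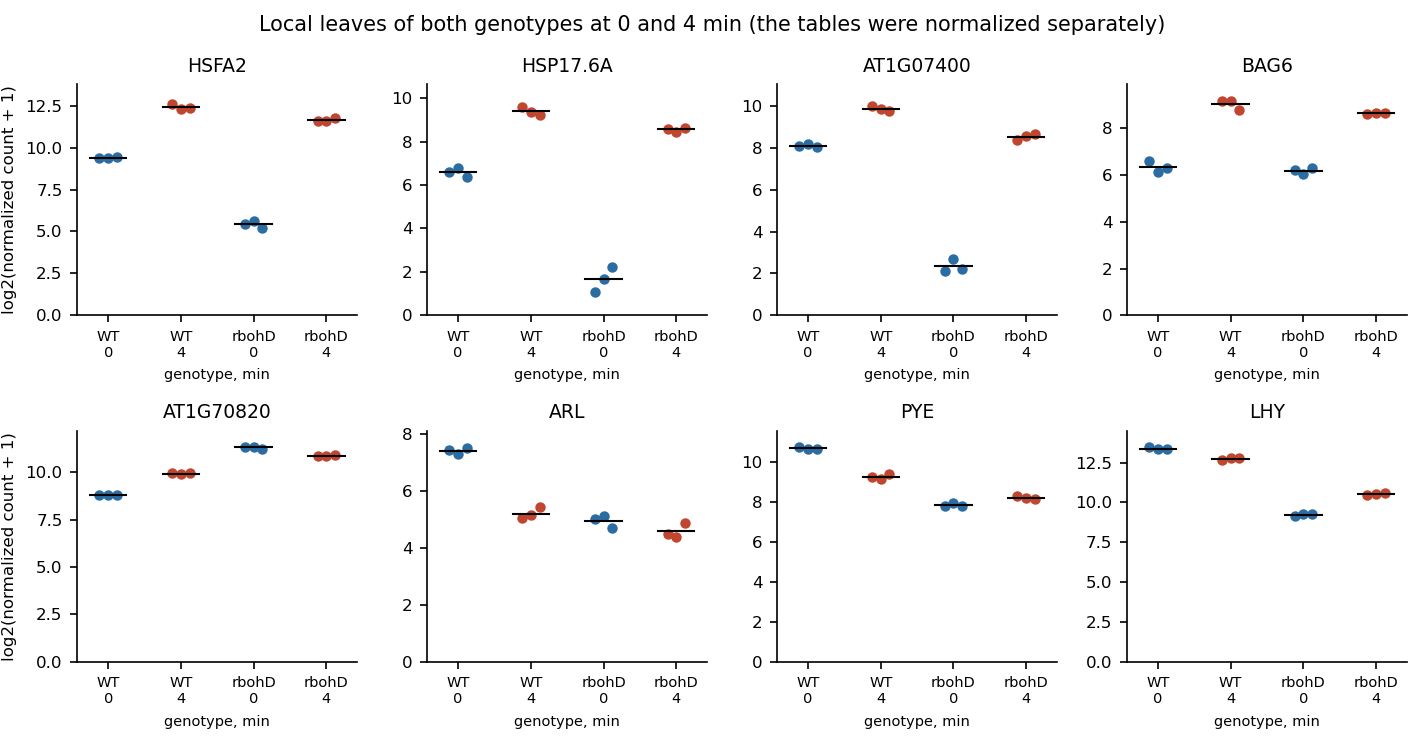
Points are libraries, bars means of 3, in local leaves of WT and rbohD plants at 0 min (blue) and 4 min (red), as log2(normalized count + 1). HSFA2, HSP17.6A and AT1G07400 start lower in rbohD and lie closer to the WT values at 4 min, and PYE, ARL and LHY start lower in rbohD and do not fall as they do in WT.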

How the data were processed

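RNA of pooled local and systemic leaves was sequenced as stranded, poly(A)-selected libraries on a NextSeq 500 (single-end). Per the methods of the study and the submitters' processing notes, the authors checked reads with FastQC 0.11.7, mapped them to TAIR10 with STAR 2.4.0.1 and normalized gene counts with DESeq2 1.20.0. The counting tool and its use of strand and of multi-mapping reads are not given in the sources used here. The deposited signal values are counts divided by the size factor of each library by the authors, 1 table for each genotype and leaf, so levels were not tested across the 4 tables. Whole reads were recovered for 100% of values in all columns (tolerance 0.001), and 0 columns were left unmapped.

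Here log2(normalized count + 1) was tested with limma 3.58.1 (R 4.3.3, mean-variance trend, two-sided, Benjamini-Hochberg) over genes that reached 10 normalized counts in 3 or more libraries of a table. The 12 WT local libraries entered 1 fit, and differences between leaves or genotypes were interaction terms over 24 libraries. Alternatives were edgeR 4.0.16 and DESeq2 1.42.0 on recovered reads, a pseudocount of 5, no filter, rescaling to one total, the compared groups alone, the replicate block and each library left out. The procedures were tested on simulated data. Local and systemic libraries were taken, by their replicate numbers, to come from the same pools of plants. Deviations of the same number correlated at 0.242, 0.11 and 0.132 (0 min) and 0.0022, 0.129 and 0.0977 (4 min). Different numbers correlated at -0.16 to 0.0539 (0 min) and -0.14 to 0.0549 (4 min). The main test of the difference between leaves did not use this pairing, and the replicate block did.

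A group member is a pool of many plants, and p-values measure the spread between pools. The 6 libraries at 0 and 4 min held 19791759 to 26903294 reads (size factors 0.8514 to 1.155), the 12 WT systemic ones 20197316 to 26757890 and the 12 rbohD local ones 13996572 to 18526191. A gene with at most 3 reads per library in a group was treated as at the floor. Named genes were the 12 largest rises and 10 largest falls that averaged at least 50 normalized counts in the 12 libraries and had no overlap. Added to these were the 5 highest and 5 lowest at 4 min. The 3 largest leaf and 2 largest genotype interactions in each direction, among genes past the interaction test, were added as well. RBOHD, the genes studied as mutants or short-listed as factors, and the 3 largest changes in each of 25 gene lists were named too. Members and lists were chosen with earlier results of these data known. Of the listed genes 18 were left out because the annotation does not pair symbol and locus. Of 18055 tested genes 17963 matched the RefSeq annotation of TAIR10.1 by locus, which gave names, coordinates and promoters.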

Additional observations from a re-analysis of the deposited data

Results flagged for a closer look

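For 6 genes the change at 4 min differed most between the lit and the unlit leaf of WT plants. They had the 3 largest differences in each direction among genes past the limma interaction test. A mean of at least 50 normalized counts in both tables was also asked. Passing the test was thus a rule of choice and not a further result. The HSP20-like genes AT1G59860 (5.443 on the log2 scale, adjusted p 4.79e-23) and AT1G54050 (4.006, adjusted p 7.97e-24) and the heat shock factor HSFA2 (3.663, adjusted p 2.27e-23) changed upwards in the lit leaf relative to the unlit one. PR1 (-3.313, adjusted p 9.94e-10), UGT76B1 (-2.729, adjusted p 0.0002) and cwINV6 (-2.544, adjusted p 0.00459) changed in the other direction.

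For local leaves of WT and rbohD plants 4 genes were chosen in the same way, as the 2 largest differences in each direction past the interaction test. AT1G70820 (1.559, adjusted p 2.64e-17) and BRCA1 (1.402, adjusted p 2.98e-07) changed upwards in WT relative to rbohD. AT1G07400 (-4.437, adjusted p 7.34e-24) and HSP17.6A (-4.098, adjusted p 4.64e-17) rose by less in WT. BRCA1 went from a mean of 151 to 80.1 normalized counts in rbohD and rose by 0.47 on the log2 scale in WT. Genotype and experiment cannot be told apart in these differences.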

How the results depend on the processing

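The count of transcripts changed at 4 min, 4303, lay between 3143 (DESeq2) and 4493 (replicate block) under the other settings, and between 3285 and 3905 with 1 library left out. Raised and lowered calls stood at 2048 and 2063 after rescaling to one total. The leaf difference moved most: its upward count of 396 became 180 after rescaling, 263 with DESeq2 and 240 with the compared groups alone, and its downward count of 736 became 1156 after rescaling. The upward count of the genotype difference, 2771, became 1807 after rescaling. No called change of a named gene turned its direction in 1690 recomputed changes, of which 23 lost and 9 gained the call, and 8 of 114 called genes lost it in some setting. With the replicate block 1341 transcripts differed between leaves and 5929 between genotypes. Same-numbered libraries at 0 and 4 min correlated at -0.0458, 0.0552 and 0.0571 in their deviations, which showed little pairing between these times. At 0 and 2 min the same numbers correlated at 0.28, 0.0816 and 0.121, and different numbers at -0.192 to 0.1. Whether same-numbered libraries of the fit share an effect was not tested. Depth limits genes with few reads at 0 min, for which folds are lower bounds.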

Other observations

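The genes in this paragraph lie outside the lists and were picked after their values had been seen. AT1G10970, a zinc transporter of the ZIP family, went from 75.4, 68.9 and 71.9 normalized counts at 0 min to 420.5, 381 and 364 at 4 min (log2 2.41), with no overlap. In the systemic leaf it went from 63.0 to 63.7, and the difference between leaves was 2.39. IRT3, of the same family, went from a mean of 44.3 to 116 in the lit leaf (log2 1.36) and from 38.1 to 32.6 in the systemic leaf, a difference of 1.59. ZIF1, which loads zinc chelators into the vacuole, fell from 4627 to 2021 (log2 -1.20). The vitamin B6 synthesis homologue PDX1.2 rose from 129 to 839 (log2 2.72), and the EF-hand gene AT1G21550 from 27.3 to 213 (log2 2.90). The RING finger genes AT1G14200 (514 to 3288, log2 2.68) and AT1G26800 (355 to 1976, log2 2.47) rose as well. EBF2, an F-box protein that removes ethylene signalling factors, fell from 1529 to 680.1 (log2 -1.17). The levels of PDX1.2 and EBF2 are uncertain, because PDX1.2 overlaps AT3G03215 by 259 bases on the opposite strand and EBF2 overlaps AT5G25340 by 533, and 15.8% and 16.6% of their 50-base stretches are shared with other genes. AT1G14200 overlaps AT1G14190 by 84 bases.

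Genes of the mitochondrial genome were higher as a group at 4 min than at 0 min in the lit leaf. Of 27 tested, 21 rose and 0 fell at 4 min in the limma test, where 13% of all genes rose and 10.8% fell. The median log2 change was 1.02. The summed level of the group was 1356 to 1859 normalized counts in the 3 libraries at 0 min and 2902 to 4118 at 4 min, without overlap. ATMG00690 went from a mean of 25.3 to 133 (log2 2.37). Of 65 plastid genome genes 2 rose and 3 fell, with a median of -0.03 and sums of 4152 to 6625 and 4955 to 8039 that overlapped. The libraries were made from poly(A) RNA, and organelle genes took at most 0.0526% of the normalized counts of a library.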
